A study of Mus musculus with 12 samples.

Results

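The 10 genes described here encode the proteins of pulmonary surfactant and of the alveolar type 2 (AT2) cell: the surfactant proteins Sftpa1, Sftpb, Sftpc, and Sftpd, the lamellar body and surfactant-handling genes Lamp3, Napsa, Slc34a2, and Lpcat1, and the transcription factors Nkx2-1 and Etv5. They were taken by name from the 38127 genes counted in each of 12 bulk RNA-seq libraries of sorted mouse embryonic liver cells, and all 10 were found. They were chosen by their measured counts, which were high in 1 of the 4 groups, the cells sorted at E18.5 (embryonic day 18.5), so their levels there are a description and were not tested against E14.5.

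All cells were Ter119-CD45- (neither erythrocytes nor CD45-expressing hematopoietic cells) and came from C57BL/6 embryonic liver. CD54 is the adhesion protein ICAM-1, encoded by Icam1, and CD31 is the endothelial protein encoded by Pecam1. At E14.5, 3 populations were sorted with 3 libraries each: CD54+CD31- cells, the epithelial, hepatoblast-containing fraction; CD54+CD31+ cells, the endothelial fraction; and Kit+CD24+ cells lacking CD54 and CD31, which are erythroid progenitors (P2 cells). At E18.5, 3 libraries of CD54+CD31- cells were made. The replicates of E14.5 cells came from independent litters per a figure legend of the study. For E18.5 the source of the replicates is not given in the sources used here. P-values that use the E18.5 libraries therefore measure the spread between these libraries, which may be technical. The gates define the groups by surface protein alone, and each library is a pool of sorted cells.

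Surfactant is the mixture of phospholipid and protein that lowers surface tension in the air spaces of the lung. AT2 cells make it, store it in lamellar bodies, secrete it, and take it up again. Expression of the surfactant proteins rises late in gestation, under the control of the homeodomain factor NKX2-1, which is restricted mainly to lung, thyroid, and parts of the forebrain; hepatoblasts, the fetal precursors of hepatocytes and bile duct cells, are not known as a source of surfactant.

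Library depth ranged from 40714017 to 64368883 counts. E18.5 replicate 1 stood apart from E18.5 replicates 2 and 3: the chi-square of its counts per degree of freedom was 451 and 537 against them and 45.5 between the other two, compared with 38.6 to 163 for the replicate pairs at E14.5. Its summed level of 13 hepatoblast markers was 4391 CPM (counts per 1000000 of the library size adjusted by the trimmed mean of M values, TMM), compared with 49729 and 65363 in replicates 2 and 3 and 87577 to 100927 in CD54+CD31- E14.5 cells. The folds of the 10 members, and the number of called genes around surfactant, are therefore also given without replicate 1. Icam1 was at 224 ± 76.8 CPM in E18.5 cells (mean ± SD, n = 3), Pecam1 at 18.1 ± 4.33 CPM, Ptprc, which encodes CD45, at 3.14 to 13.6 CPM, and Cdh1, the epithelial cadherin, at 771 ± 151 CPM.

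The label of the 10 genes was checked against other genes of the same cell type. Of 16 further AT2 genes, 15 were counted, and S100g had 0 counts in all libraries. All 15 were higher in E18.5 than in E14.5 CD54+CD31- cells, as were 35.9% of all genes tested, and all 15 were also called without E18.5 replicate 1. This count is a description: the list was chosen with results of these data known, and 5 of the 15 genes, with fewer than 10 counts in each CD54+CD31- E14.5 library, entered the test through their E18.5 counts. Markers of other lung cells were present in the same libraries. The 7 alveolar type 1 markers summed to 2788 to 5955 CPM at E18.5 and 25.2 to 29.3 CPM in CD54+CD31- E14.5 cells, the 6 airway markers to 104 to 277 and 10.7 to 11.4 CPM, and the 6 lung mesenchyme markers to 54.2 to 114 and 2.07 to 3.15 CPM. Nkx2-1 also marks the thyroid. The 8 thyroid markers summed to 10.1 to 26.3 CPM at E18.5 and 53.8 to 60.9 CPM in CD54+CD31- E14.5 cells, most of it from Iyd, an iodotyrosine deiodinase, with 508 to 1811 counts at E18.5. Of 4 thyroid markers tested, Tshr was higher (29, 20, and 21 counts at E18.5) and Iyd lower. Tshr had 1, 0, and 0 counts in CD54+CD31- E14.5 cells and entered the test through its E18.5 counts. Foxe1 had 0 counts in all E18.5 libraries, Pax8 3 to 16, and Tg 45 to 70.

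NKX2-1 and the FOXA factors are known regulators of surfactant genes, so the 250 bases upstream of the annotated start were searched for their motifs. The sequences are shown for the 3 members near 0 at E14.5 that held one. Promoter entries were available for 7 of the 10 members (RefSeq, GRCm38.p6), as 8 entries because Etv5 has 2. Capitals mark CTCAAG, a form of the NKX2-1 site, or TGTTTAC, a FOXA site, searched on both strands. The regions are chr6:72304360-72304609 (plus strand) for Sftpb, chr14:41131538-41131787 (plus strand) for Sftpa1, and chr16:19706366-19706615 (minus strand) for Lamp3.
Sftpb: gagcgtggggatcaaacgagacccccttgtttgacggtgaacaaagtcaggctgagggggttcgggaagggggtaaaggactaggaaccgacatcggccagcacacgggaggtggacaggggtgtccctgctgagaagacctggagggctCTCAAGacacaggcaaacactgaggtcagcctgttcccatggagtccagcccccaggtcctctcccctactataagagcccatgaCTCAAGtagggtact
Sftpa1: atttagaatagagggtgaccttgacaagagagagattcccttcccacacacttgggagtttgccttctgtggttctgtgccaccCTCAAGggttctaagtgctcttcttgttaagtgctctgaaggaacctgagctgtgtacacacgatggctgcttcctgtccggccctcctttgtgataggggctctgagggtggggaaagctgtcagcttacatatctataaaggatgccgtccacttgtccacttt
Lamp3: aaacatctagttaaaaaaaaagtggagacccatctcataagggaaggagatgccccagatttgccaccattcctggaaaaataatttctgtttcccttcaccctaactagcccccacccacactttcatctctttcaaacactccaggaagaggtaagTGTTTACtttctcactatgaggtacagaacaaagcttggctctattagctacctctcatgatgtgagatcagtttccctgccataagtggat
Sftpb held CTCAAG 2 times, starting at positions -100 and -15 from the annotated start, and Sftpa1 1 time, at -166. The same letters occurred in 13.3% of 32851 promoter entries of this length. Lamp3 held TGTTTAC 1 time, at -92, as did 1 of the 2 Etv5 entries, at -183; 3.17% of all entries held it. The entries of Slc34a2, Nkx2-1, and Lpcat1 and the other Etv5 entry held neither CTCAAG nor TGTTTAC. Sftpc, Sftpd, and Napsa were without an entry. The shorter NKX2-1 core CAAG, which overlaps CTCAAG, was found in 86.6% of entries. A match of letters is a description of the sequence and not a bound site.

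Surfactant proteins B and C are the small hydrophobic proteins that spread the lipid film. Sftpc, on chromosome 14 (70520949 to 70524081, minus strand, GRCm38), was the highest member per length. It had 799621, 393707, and 390200 counts in E18.5 replicates 1, 2, and 3, or 12377, 5095, and 5404 CPM (mean 7625 ± 4118, n = 3), and by itself made up 1.502%, 0.612%, and 0.610% of all counts. In the 9 E14.5 libraries its counts ranged from 0 to 67, and 4 of the 9 had 0, which allows up to 3 counts in a library. The groups did not overlap: the mean was 12501-fold that of CD54+CD31- E14.5 cells, and 8606-fold without E18.5 replicate 1. This ratio rests on E14.5 replicate 2, which held 55 of the 59 counts of that group; without it the ratio was at least 80750.4-fold, against the floor of 3 counts per library.

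Sftpb, on chromosome 6 (72304610 to 72314371, plus strand), had 164226, 98168, and 98824 counts at E18.5, or 2542, 1270, and 1369 CPM (mean 1727 ± 708, n = 3). At E14.5 it had 7 to 37 counts in each of the 9 libraries, so that no E14.5 library was without it and none exceeded 0.665 CPM. The E18.5 mean was 4128-fold that of CD54+CD31- E14.5 cells, and 3154-fold without replicate 1.

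Surfactant proteins A and D are collectins, soluble lectins of innate defense in the airspace. Sftpa1, on chromosome 14 (41131782 to 41136452, plus strand), had 97142, 51918, and 45361 counts at E18.5, or 1504, 672, and 628 CPM (mean 935 ± 493, n = 3), and 0 to 17 counts in the E14.5 libraries. Its E18.5 mean was 3489-fold that of CD54+CD31- E14.5 cells, 2427-fold without E18.5 replicate 1, and 6962-fold without E14.5 replicate 2, which held 17 of the 27 counts in that group.

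Sftpd lies 35.8 kb further along the same chromosome (41172214 to 41185149, minus strand). It had 19125, 10804, and 8722 counts at E18.5, or 296, 140, and 121 CPM (mean 186 ± 96.2, n = 3). Unlike the other surfactant proteins it was counted evenly in CD54+CD31- E14.5 cells, with 146, 121, and 145 counts (3.84 ± 0.278 CPM, n = 3). The E18.5 mean was 48.3-fold higher, and 33.9-fold without replicate 1.

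The only protein-coding gene annotated between Sftpa1 and Sftpd is another collectin, Mbl1 (41151458 to 41159601, plus strand), which encodes a mannose-binding lectin secreted by the liver. Mbl1 moved the other way: it was at 84.2 ± 1.75 CPM in CD54+CD31- E14.5 cells and at 8.14, 20.1, and 27.2 CPM in the E18.5 libraries, a log2 fold change of -2.01 (SE 0.39, adjusted p = 0.00354, edgeR). In E18.5 replicate 1, where Sftpa1 and Sftpd were highest, Mbl1 was lowest.

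**Figure D1:**
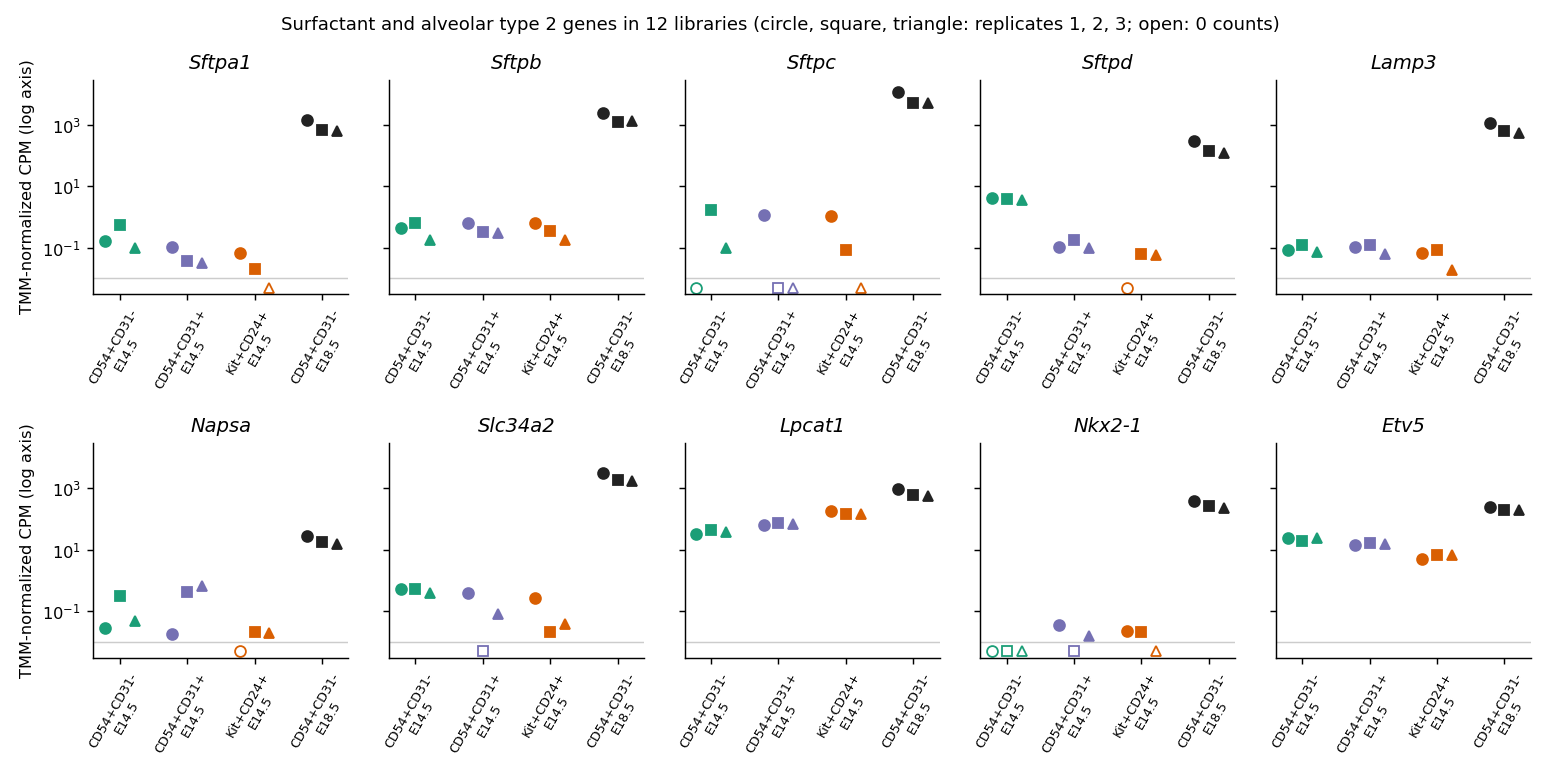
Level of each of the 10 genes in each of the 12 libraries, as TMM-normalized CPM on a log axis; circles, squares, and triangles are replicates 1, 2, and 3, and open symbols below the gray line stand for 0 counts. All 10 genes sit above every E14.5 library in the 3 E18.5 libraries, Lpcat1 and Etv5 are well above 1 CPM in all libraries, and Sftpd is at 3.58 to 4.13 CPM in CD54+CD31- E14.5 cells.

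Among the genes that store and handle surfactant, Slc34a2, a phosphate transporter of the AT2 cell surface, was the highest per length. It had 211009, 144591, and 127197 counts at E18.5, or 3266, 1871, and 1761 CPM (mean 2300 ± 839, n = 3), and 0 to 21 counts at E14.5. The fold over CD54+CD31- E14.5 cells was 4701, and 3713 without replicate 1. Slc34a2 lies on chromosome 5 (53038081 to 53071664, plus strand).

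Lamp3, a membrane protein of lamellar bodies (chromosome 16, 19653378 to 19706375, minus strand), had 1 to 7 counts in each of the 9 E14.5 libraries. At E18.5 it had 73658, 47829, and 40660 counts, or 1140, 619, and 563 CPM (mean 774 ± 318, n = 3). Its ratio of 8153 to CD54+CD31- E14.5 cells rests on 10 counts there and was 6225 without replicate 1.

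Napsa encodes napsin A, an aspartic protease that processes surfactant protein B, and was the lowest member per length at E18.5. Its counts there were 1847, 1402, and 1117, or 28.6, 18.1, and 15.5 CPM (mean 20.7 ± 6.93, n = 3), 159-fold over CD54+CD31- E14.5 cells and 128-fold without replicate 1. Napsa (chromosome 7, 44572380 to 44586862, plus strand) shares 502 exon bases with the antisense gene Gm15396, which had at most 171 counts in any library. Whether the counting used strand is not given in the sources used here, so reads of the 2 genes may not be told apart. CD54+CD31+ E14.5 cells had 1, 23, and 43 Napsa counts, which gave the highest E14.5 level of the gene.

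Lpcat1, the acyltransferase that makes the saturated phosphatidylcholine of surfactant (chromosome 13, 73467197 to 73516422, plus strand), was expressed in every population. It had 62736, 46526, and 40548 counts at E18.5, or 971, 602, and 562 CPM (mean 712 ± 226, n = 3), compared with 1131, 1374, and 1489 counts in CD54+CD31- E14.5 cells (37.3 ± 5.65 CPM). The fold was 19.1, and 15.6 without replicate 1. Its lowest level at E18.5 exceeded its highest at E14.5 3.15-fold, the narrowest of the non-overlapping gaps among the 10 genes.

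Nkx2-1, the lung and thyroid homeodomain factor (chromosome 12, 56531958 to 56536908, minus strand), had 24341, 20043, and 16600 counts at E18.5, or 377, 259, and 230 CPM (mean 289 ± 77.7, n = 3). All 3 CD54+CD31- E14.5 libraries had 0 counts, and the other 6 E14.5 libraries had 0 to 2. Against the floor of 3 counts per library, Nkx2-1 was at least 3057-fold higher at E18.5, and at least 2591-fold without replicate 1. An antisense gene, Gm26973, lies within Nkx2-1 without sharing exon bases, and had at most 3910 counts.

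Etv5, an ETS factor downstream of fibroblast growth factor (FGF) signaling that maintains AT2 cells (chromosome 16, 22381309 to 22439719, minus strand), differed least. It had 16291, 15411, and 13835 counts at E18.5, or 252, 199, and 192 CPM (mean 214 ± 32.9, n = 3), and 839, 605, and 994 counts in CD54+CD31- E14.5 cells (22.4 ± 2.97 CPM). The fold was 9.56, and 8.71 without replicate 1.

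All 10 genes were above every E14.5 library in each E18.5 library, which also held for 18.8% of the 15863 genes tested (2986 genes). The members were chosen for this contrast, so nothing is read from that count. In bulk libraries, more cells of a type and more RNA per cell cannot be told apart, and these ratios do not say what share of the sorted cells held the transcripts.

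Levels can be compared between genes only per length of transcript. On that scale, CPM per kilobase (kb) of exon, the order at E18.5 was Sftpc at 7375, Sftpb at 878, Slc34a2 at 459, Sftpa1 at 327, Lamp3 at 231, Lpcat1 at 154, Nkx2-1 at 102, Sftpd at 76.8, Etv5 at 52.3, and Napsa at 7.79 (means of 3). Sftpc ranked 3, 4, and 5 among all genes with a length in replicates 1, 2, and 3, and it held 78.2%, 73.5%, and 75.0% of the summed level per kb of the 10 genes. Sftpc was above every other member in each library without overlap, and Napsa below every other. Neighbours in between overlapped over the 3 libraries: the range of Slc34a2 (351 to 652) overlapped with those of Sftpb (646 to 1292) and Sftpa1 (220 to 526), and that of Sftpd (50.0 to 122) with those of Nkx2-1 (80.9 to 133) and Etv5 (46.7 to 61.5). Within each library, however, Sftpb was above Slc34a2, and Slc34a2 above Sftpa1.

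**Figure D2:**
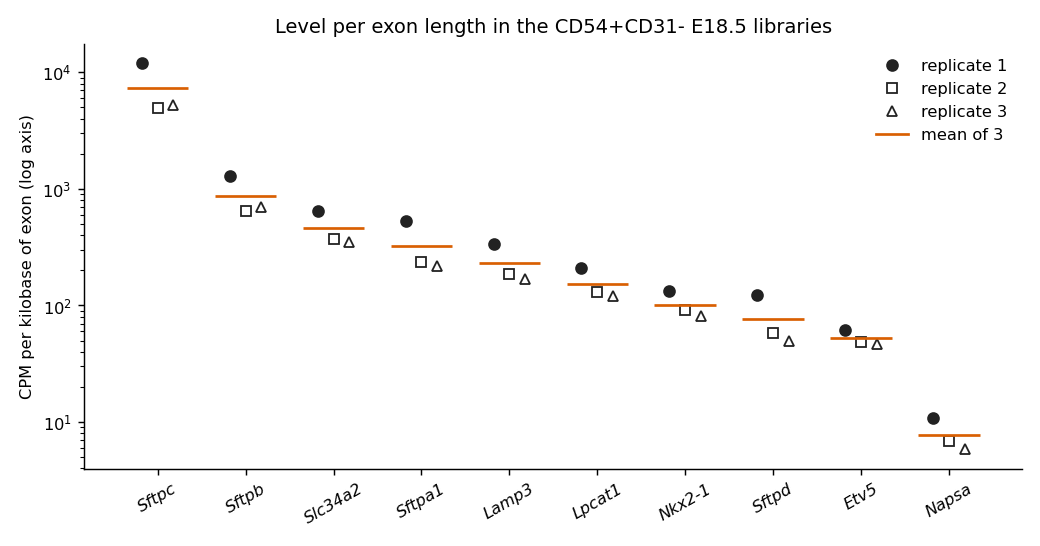
Level per kilobase of exon (CPM per kb, log axis) of the 10 genes in the 3 CD54+CD31- E18.5 libraries, ordered by their mean, which is drawn as a line; filled circles are replicate 1 and open symbols replicates 2 and 3. Replicate 1 is the highest library for all 10 genes, and Sftpc stands above the other 9.

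The 10 genes were not at one level across the E18.5 libraries. All 10 were highest in replicate 1, and replicates 2 and 3 lay close together, with ratios of replicate 2 to replicate 3 from 0.928 for Sftpb to 1.17 for Napsa. The ratio of replicate 1 to the mean of replicates 2 and 3 was 2.36 for Sftpc, 2.31 for Sftpa1, 2.27 for Sftpd, 1.93 for Lamp3, 1.93 for Sftpb, 1.80 for Slc34a2, 1.70 for Napsa, 1.67 for Lpcat1, 1.54 for Nkx2-1, and 1.29 for Etv5. The secreted surfactant proteins A, C, and D thus had the largest ratios and both transcription factors the smallest. These ratios compare single libraries of one group, and no test was made.

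Counting error is small beside these ratios, at most 2.99% of the count (Napsa in replicate 3). The median ratio of the 10 genes was 1.86, compared with 1.01 over the 8627 genes with a mean of at least 10 CPM at E18.5. Of those genes, 0.313% had a larger ratio than Sftpc, and 15.8% a larger ratio than Etv5. Because the ratios differed, the composition of the set moved as well: per unit of Nkx2-1, Sftpc (both per kb) was 90.3 in replicate 1, 54.0 in replicate 2, and 64.6 in replicate 3, whereas Etv5 was 0.464, 0.533, and 0.577.

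Other lists moved with the members between these libraries, among them the lung lists and the cholangiocyte list, whose markers lung epithelium shares. The median ratio of replicate 1 to the mean of the other two was 1.98 for the 15 other AT2 genes, 2.10 for the 7 alveolar type 1 markers, 2.41 for the 4 airway markers at 10 CPM or more, 1.42 for the 14 lung epithelial regulators at that level, and 1.49 for the 6 cholangiocyte markers, of which 5 were above 1. Hepatoblast markers moved the other way, with a median of 0.0798 over 12 genes (range 0.0632 to 0.116): Alb was at 2405, 26609, and 34537 CPM and Afp at 309, 3376, and 4242 CPM in replicates 1, 2, and 3. Macrophage markers had a median of 0.320 over 6 genes. The part of these shifts in the levels of the 10 genes was not tested.

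**Figure D3:**
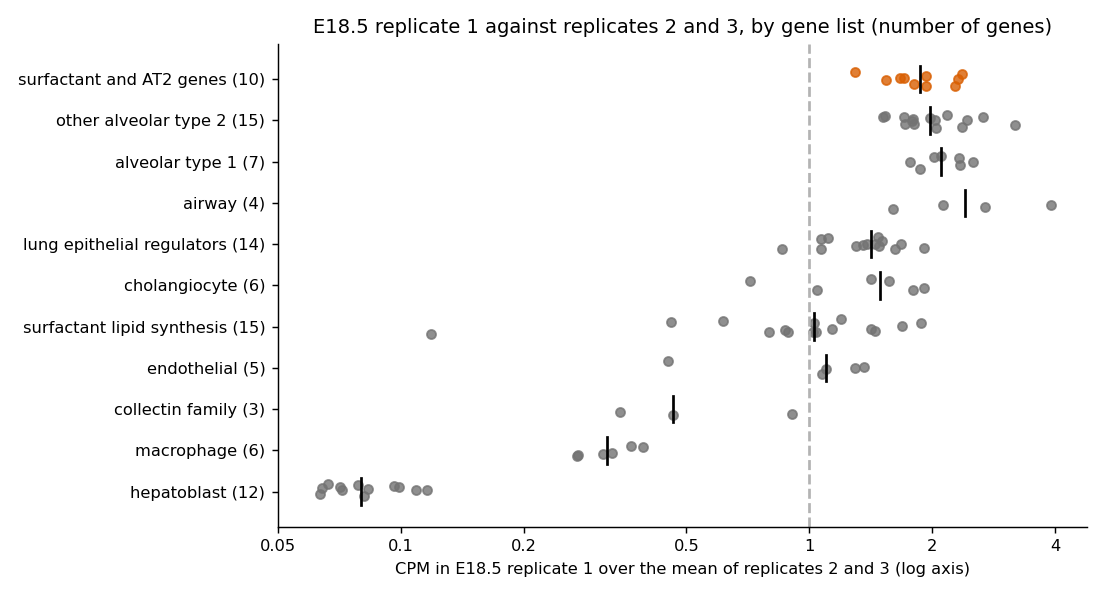
CPM in E18.5 replicate 1 divided by the mean of replicates 2 and 3 (log axis), for the 10 surfactant and AT2 genes and for the genes of 10 other lists with a mean of at least 10 CPM at E18.5; each point is a gene, the bar is the list median, and the dashed line is a ratio of 1. The 10 genes lie between 1.29 and 2.36, and the 12 hepatoblast markers between 0.0632 and 0.116.

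Differences between the E14.5 populations were not used to choose the genes and were tested in a fit of the 9 E14.5 libraries (edgeR quasi-likelihood test, Benjamini-Hochberg adjusted p below 0.05 over 15461 genes). Of the 10 members, 7 passed the low count filter; Sftpa1, Lamp3, and Nkx2-1 did not. Lpcat1 was highest in Kit+CD24+ cells, Etv5 highest in CD54+CD31- cells and lowest in Kit+CD24+ cells, and Sftpd almost limited to CD54+CD31- cells. Sftpb and Sftpc were not called in any of the 3 comparisons.

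Lpcat1 was at 32, 43.2, and 36.7 CPM in CD54+CD31- cells, at 63.1, 75.8, and 69.2 CPM in CD54+CD31+ cells, and at 178, 144, and 151 CPM in Kit+CD24+ cells. No 2 populations overlapped. It was higher in Kit+CD24+ than in CD54+CD31- cells by a log2 fold change of 2.06 (SE 0.13, adjusted p = 2.41e-07, edgeR), higher in Kit+CD24+ than in CD54+CD31+ cells by 1.18 (SE 0.13, adjusted p = 1.28e-05), and higher in CD54+CD31+ than in CD54+CD31- cells by 0.89 (SE 0.13, adjusted p = 0.00014). The erythroid progenitors had the most Lpcat1 of the E14.5 populations, at 157.8 ± 17.9 CPM (n = 3).

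Etv5 ran in the opposite order. It was at 23.7, 19.0, and 24.5 CPM in CD54+CD31- cells, at 14.7, 16.5, and 15.0 CPM in CD54+CD31+ cells, and at 4.94, 6.56, and 6.62 CPM in Kit+CD24+ cells, again with no overlap between populations. The log2 fold change was -1.91 (SE 0.15, adjusted p = 1.2e-06, edgeR) in Kit+CD24+ against CD54+CD31- cells, -1.36 (SE 0.15, adjusted p = 1.35e-05) in Kit+CD24+ against CD54+CD31+ cells, and -0.55 (SE 0.14, adjusted p = 0.00685) in CD54+CD31+ against CD54+CD31- cells.

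Sftpd had 146, 121, and 145 counts in CD54+CD31- cells, 6, 10, and 6 in CD54+CD31+ cells, and 0, 3, and 3 in Kit+CD24+ cells. It was lower by a log2 fold change of -4.90 (SE 0.46, adjusted p = 5.84e-06, edgeR) in CD54+CD31+ and of -6.46 (SE 0.54, adjusted p = 1.86e-06) in Kit+CD24+ than in CD54+CD31- cells. Between Kit+CD24+ and CD54+CD31+ cells the log2 fold change was -1.56 (adjusted p = 0.048), a call lost in 11 of the 15 alternatives, with adjusted p from 0.0562 to 0.159.

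In Kit+CD24+ against CD54+CD31- cells, 3 of the 7 members tested were called, 1 higher and 2 lower, compared with 70.0% of all genes tested (33.8% higher and 36.1% lower). The same numbers were called in CD54+CD31+ against CD54+CD31- cells, where 65.6% of all genes were called (31.7% higher and 34.0% lower). In Kit+CD24+ against CD54+CD31+ cells, 4 members were called, 1 higher and 3 lower, compared with 73.7% of all genes (34.3% higher and 39.4% lower). The fourth was Napsa (log2 fold change -4.52, SE 1.4, adjusted p = 0.0136, edgeR), whose populations overlapped and whose call was lost without CD54+CD31+ replicate 3 (adjusted p = 0.0544). Abca3, the lipid transporter of the lamellar body and no member of the set, was also expressed in all 3 populations, at 157 ± 6.59 CPM in CD54+CD31-, 99.7 ± 5.94 in CD54+CD31+, and 239 ± 12.6 in Kit+CD24+ cells (n = 3 each). As for Lpcat1, the highest level was in Kit+CD24+ cells (log2 fold change 0.59 against CD54+CD31- cells, SE 0.08, adjusted p = 9.69e-05, edgeR).

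**Figure D4:**
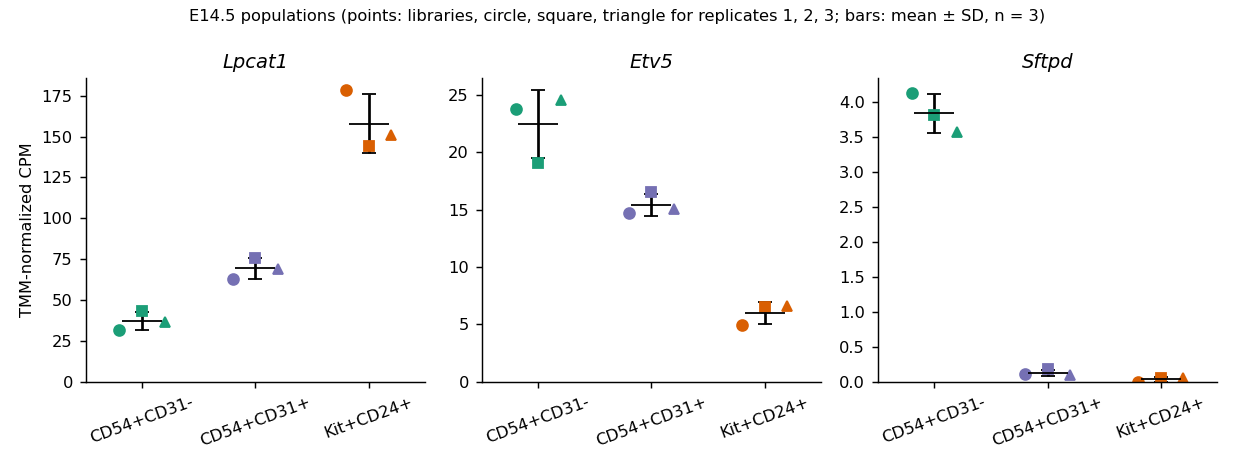
Level of Lpcat1, Etv5, and Sftpd (TMM-normalized CPM, linear axes from 0) in the 3 populations sorted at E14.5; points are libraries and bars are the mean ± SD of 3. Lpcat1 rises to 157.8 CPM in Kit+CD24+ cells, where Etv5 is lowest at 6.04 CPM, and Sftpd is at 3.84 CPM in CD54+CD31- cells and below 0.2 CPM in the others.

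Reads of the surfactant genes at E14.5 were few and unevenly spread. CD54+CD31- replicate 2 held 55 of the 59 Sftpc counts of its group, CD54+CD31+ replicate 1 all 67, and Kit+CD24+ replicate 1 47 of 51. These 3 libraries also had the highest Sftpb and Sftpa1 counts of their groups, with 20, 37, and 27 for Sftpb and 17, 6, and 3 for Sftpa1. Over the 43 genes with a mean of at least 100 CPM at E18.5 and at most 1 CPM over the E14.5 libraries, the same libraries were the highest of their group for 25, 24, and 25 genes. The 43 genes include Sftpc, Sftpb, and Sftpa1, by which these libraries were picked. The share over all genes was not computed, so nothing is read from these counts. The source of these reads was not tested.

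Genes around surfactant were followed in 6 lists with the fit of the 6 CD54+CD31- libraries, in which 35.9% of 15863 genes were higher and 33.5% lower at E18.5. Of 78 listed genes 69 were tested, and 46 were higher, 11 lower, and 12 not called. Without E18.5 replicate 1, 47 were higher and 12 lower, and 0 of the calls were lost. The lists differed. The 15 AT2 genes were all higher (median log2 fold change 9.43), 13 of 15 lung epithelial regulators were higher and 0 lower, whereas the 15 lipid synthesis genes were split into 5 higher, 5 lower, and 5 not called (median 0.16). The lipid split depended on the scaling and on single libraries: it was 9 higher and 4 lower with the authors' factors, 5 and 6 without E18.5 replicate 1, and 2 to 5 higher and 5 to 6 lower with any library left out, the lowest without CD54+CD31- E14.5 replicate 2, where the calls of Chka, Scd2, and Fasn were lost (adjusted p = 0.0568, 0.15, and 0.0888, edgeR). The median over all genes tested was 0.03. Levels were normalized over 12 libraries and log2 fold changes over 6, which adds 0.19 to the latter.

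Among the other AT2 genes, those with the largest fold changes were Muc1, a membrane mucin, and Lyz1, a lysozyme. Muc1 had 1, 1, and 0 counts in the CD54+CD31- E14.5 libraries and was at 506, 305, and 287 CPM at E18.5. Lyz1 had 0, 5, and 0 counts at E14.5 and was at 860, 259, and 280 CPM at E18.5. Both passed the low count filter through the E18.5 libraries alone. Abca3 went from 157 ± 6.59 to 909 ± 304 CPM (n = 3 each), a log2 fold change of 2.72 (SE 0.26, adjusted p = 0.00015, edgeR).

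Of the lipid synthesis genes, Chpt1, which makes phosphatidylcholine in its last step, rose from 7.09 ± 0.293 to 38.3 ± 12.3 CPM (log2 fold change 2.63, SE 0.24, adjusted p = 0.000124, edgeR), and Scd1, a fatty acid desaturase, from 476 ± 45.4 to 1926 ± 756 CPM (2.21, SE 0.31, adjusted p = 0.000725). Plin2, a lipid droplet coat protein, fell from 151 ± 11.3 to 47.1 ± 12.5 CPM (-1.5, SE 0.19, adjusted p = 0.000549), and Fabp5, a fatty acid carrier, from 1180 ± 249 to 392 ± 150 CPM (-1.41, SE 0.32, adjusted p = 0.00714). Hepatocytes also use these pathways, and the median ratio of replicate 1 to replicates 2 and 3 over this list was 1.03, with a range of 0.119 to 1.88. The ratio was 1.68 for Chpt1 and 1.88 for Scd1, and 0.613 for Plin2 and 0.458 for Fabp5.

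The largest changes among lung epithelial regulators were those of the Iroquois factors. Irx1 had 0, 4, and 0 counts in CD54+CD31- E14.5 cells and was at 245, 146, and 146 CPM at E18.5, and Irx3 had 0, 1, and 0 counts and was at 56.3, 31.8, and 27.2 CPM. They too passed the filter through the E18.5 libraries alone and are among 4 of the 15 regulators tested with fewer than 10 counts in each CD54+CD31- E14.5 library. Ehf, with 0, 13, and 2 counts there, and Grhl2, with 23, 13, and 8, also needed their E18.5 counts to pass. The count of regulators called higher is therefore a description. The list median was a log2 fold change of 6.14, or 3.43 with Sox2, at 0 counts in E14.5 cells, put at its lower bound. Elf3 had 0 counts in all libraries.

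On the FGF axis that leads to Etv5, 6 of 10 genes tested were higher and 2 lower, and Fgf7 had 0 counts in all libraries. Fgf10, a ligand made by lung mesenchyme, rose from 0.128 ± 0.114 to 1.61 ± 0.473 CPM (log2 fold change 3.79, SE 0.63, adjusted p = 0.00165, edgeR), and Spry1, an inhibitor induced by FGF signaling, from 10.9 ± 1.34 to 61.1 ± 16.0 CPM (2.67, SE 0.22, adjusted p = 7.4e-05). With 9, 1, and 4 counts in the CD54+CD31- E14.5 libraries, Fgf10 passed the low count filter through the E18.5 libraries alone, so its call is a description. The receptor Fgfr2 fell from 7821 ± 2001 to 3415 ± 251 CPM (-1.01, SE 0.27, adjusted p = 0.0138), and Spry4 from 18.6 ± 1.16 to 11.6 ± 1.22 CPM (-0.49, SE 0.13, adjusted p = 0.0129). Fgfr2 counts were high in every population, with 5471 ± 1307 CPM in CD54+CD31+ and 4327 ± 820 CPM in Kit+CD24+ E14.5 cells. The source of this level was not tested. Etv4, the close relative of Etv5, was at 0.956 ± 0.158 CPM at E14.5 and 0.643 ± 0.317 CPM at E18.5 (-0.39, SE 0.48, adjusted p = 0.495).

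In the collectin family of Sftpa1 and Sftpd, 3 of the 5 other genes were higher at E18.5, and Mbl1 was lower. The log2 fold change was 2.29 (SE 0.33, adjusted p = 0.000853, edgeR) for Colec10, 1.87 (SE 0.26, adjusted p = 0.000812) for Colec11, and 2.15 (SE 0.21, adjusted p = 0.000152) for Colec12. Colec12 was at 39.7 ± 3.06 CPM at E18.5, below its 265.5 ± 25.1 CPM in CD54+CD31+ E14.5 cells, the endothelial fraction. Mbl2 was at 1.32 ± 0.345 CPM at E14.5 and at 0.557, 6.61, and 8.39 CPM at E18.5, and its difference passed the threshold only without E18.5 replicate 1, with DESeq2, with all 12 libraries in one fit, or with the authors' factors (2.15, SE 0.86, adjusted p = 0.0604 as tested, and 1.44e-05 without that library). Unlike Sftpa1 and Sftpd, none of these 5 genes was highest in replicate 1.

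Among other paralogs of the members, 4 of 9 genes tested were higher and 3 lower. Lpcat2 rose from 1.75 ± 0.407 to 6.55 ± 1.68 CPM (log2 fold change 2.08, SE 0.27, adjusted p = 0.000512, edgeR), and Lpcat3 fell from 112 ± 4.08 to 62.0 ± 17.5 CPM (-0.67, SE 0.20, adjusted p = 0.021). Ren1, an aspartic protease like Napsa, rose from 0.0493 ± 0.0441 to 1.4 ± 0.203 CPM (5.0, SE 0.67, adjusted p = 0.000614), and Ctsd, a lysosomal protease of the same class, fell from 56.5 ± 6.11 to 34.2 ± 3.66 CPM (-0.54, SE 0.11, adjusted p = 0.00432). With 3, 2, and 0 counts in the CD54+CD31- E14.5 libraries, Ren1 passed the low count filter through the E18.5 libraries alone, so its call is a description. The calls of Lpcat3 and Ctsd were lost with the authors' factors (adjusted p = 0.0785 and 0.0502), as was that of Spry4 (0.152). The call of Lpcat3 was also lost without any 1 of the 3 CD54+CD31- E14.5 libraries (adjusted p = 0.0591, 0.0539, and 0.0705).

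**Figure D5:**
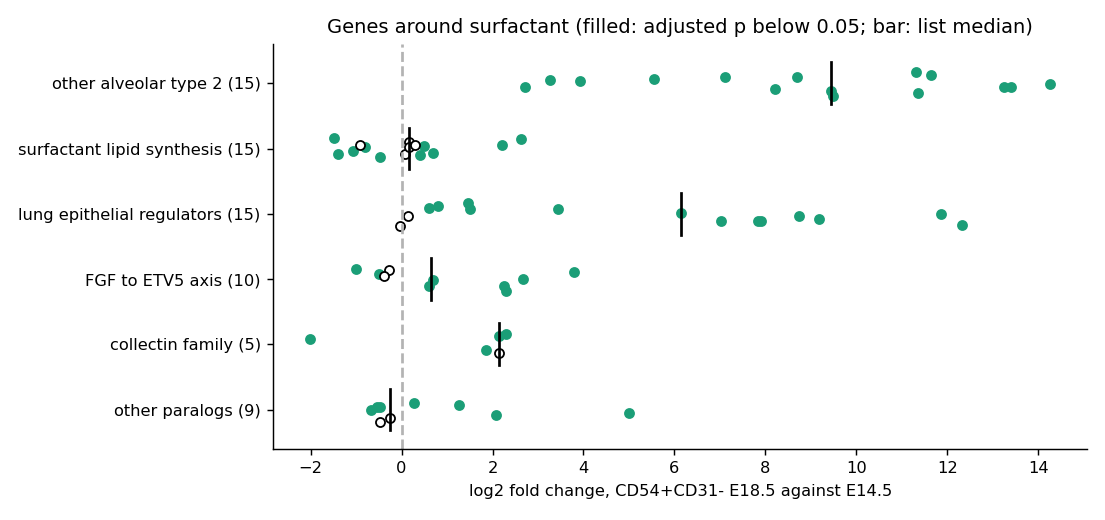
Log2 fold change of CD54+CD31- E18.5 against E14.5 cells for the tested genes of 6 lists around surfactant; filled points passed an adjusted p of 0.05 and bars are list medians. The 15 other AT2 genes all lie above 0, and the 15 lipid synthesis genes lie on both sides of it around a median of 0.16.

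Likeness to the members was measured over 12 libraries as the root mean square difference between the centred log2(CPM + 1) profile of a gene and the mean profile of the 10 members, among 8617 other genes with a mean of at least 10 CPM at E18.5. Among the 8 closest genes were Lgi3 (0.151), Krt19 (0.175), Chil1 (0.201), Msln (0.205), Irx1 (0.214), Egfl6 (0.221), and Sec14l3 (0.228). Lgi3, Chil1, Egfl6, and Irx1 belong to the lists above. Of the members themselves, Nkx2-1 was the closest to their mean at 0.197 and Lpcat1 the farthest at 2.18, with 556 other genes closer. The measure describes these libraries, in which the E18.5 group sets most of the profile.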

How the data were processed

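RNA of 12 libraries from 4 sorted populations (3 each) was prepared with a stranded total RNA kit after enzymatic removal of ribosomal RNA. The authors trimmed single-end reads with cutadapt 1.11, aligned them to GRCm38 with STAR 2.5.0a, counted reads per gene with featureCounts 1.4.6-p3, and deposited raw counts together with a score, the rounded product of the count and 1 factor per library (DESeq2 normalization). The annotation release, strand setting, and treatment of multiply aligned reads are not given in the sources used here. Of the listed genes, 6 had 0 counts in all 12 libraries. Whether they were not expressed or were lost in counting was not tested. Every level and test used the counts; the score served for the authors' factors alone.

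Tests used edgeR 4.0.16 in R 4.3.3 (TMM, filterByExpr, quasi-likelihood test, Benjamini-Hochberg adjustment), with 9 libraries for the E14.5 comparisons and 6 for E18.5 against E14.5; each SE was computed as the log2 fold change over the root of its F statistic. Lengths and coordinates came from GENCODE vM21, in which 37932 of 38127 identifiers were found. Intervals and floors cover counting error only; depth was high, and 3 libraries per group limit the precision.

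The members and gene lists were chosen with earlier results of these data known. Genes named besides the members were, per list, the 2 called genes without overlap with the largest change in each direction, Abca3, Etv4, the collectins, the sorting antigens, and the 8 most alike, of which 1 is not reported here; marker genes, Sox2, Elf3, and genes at 0 were named after their values were seen. Alternatives were DESeq2 1.42.0, its size factors in edgeR, no low count filter, the replicate number as a block, all 12 libraries in one fit, each library left out in turn, and total-count scaling of levels; the authors' factors, and the marker lists with a library left out, were added after the data were examined. On simulated counts of 15461 genes for Kit+CD24+ against CD54+CD31- cells, the test called 67 of 100 genes changed 2-fold, 97 of 100 changed 4-fold, and 9 unchanged genes. The simulation used the same dispersion for every gene and library. These rates therefore do not give the power for measured genes with another spread.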

Additional observations from a re-analysis of the deposited data

How the results depend on the processing

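No difference past the threshold changed direction under any alternative, whereas Sftpb, Sftpc, and Slc34a2, not called between E14.5 populations, changed sign under some. Between Kit+CD24+ and CD54+CD31- E14.5 cells, 3 members were called, and 3 to 4 with a library left out. Between Kit+CD24+ and CD54+CD31+ cells, 4 were called and 2 to 4 with a library left out, the lowest without CD54+CD31+ replicate 3, where the calls of Napsa and Sftpd were lost; between CD54+CD31+ and CD54+CD31- cells, 3 and 3 to 4. Of the genes around surfactant, 41 to 47 were called higher and 9 to 12 lower with a library left out, and 6 rather than 11 were lower with the authors' factors. Those factors moved the median log2 fold change of all genes from 0.03 to 0.27 for E18.5 against E14.5, from -0.01 to -0.27 for Kit+CD24+ against CD54+CD31- cells, and from -0.13 to -0.50 for Kit+CD24+ against CD54+CD31+ cells, and the share of calls that were higher from 48.4% to 38.2% and from 46.6% to 33.9% in the last 2 comparisons. The median ratio of E18.5 replicate 1 to replicates 2 and 3 over the 10 members, 1.86, was 1.94 with total counts, 1.90 with total counts without genes above 1% of a library, 1.97 with DESeq2's size factors, and 1.98 with the authors' factors.

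With the replicate number as a block, 5 members rather than 3 were called between Kit+CD24+ and CD54+CD31- E14.5 cells, the additional ones being Napsa (adjusted p = 0.0432, edgeR) and Slc34a2 (0.0321), and the Sftpd call between Kit+CD24+ and CD54+CD31+ cells was lost (0.0712). Deviations of same-numbered libraries correlated by 0.004 to 0.169, in no comparison above 0.1 for all 3 numbers. Whether same-numbered E14.5 libraries came from the same litter is not given in the sources used here. These correlations cannot exclude it.

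Members at a few counts per E14.5 library (Sftpa1, Lamp3, Nkx2-1, and Sftpc among them) cannot be compared between E14.5 populations at this depth. The E18.5 libraries have 3 replicates of unstated origin, and one of them differs from the others in hepatoblast and lung markers alike.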

Other observations

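Other marker lists in the E18.5 cells, compared with CD54+CD31- E14.5 cells (edgeR, adjusted p below 0.05; 35.9% of all genes tested were higher and 33.5% lower), were as follows. All 6 cholangiocyte markers were higher, and their summed level was 849 to 1270 CPM at E18.5 and 35.8 to 46.8 CPM at E14.5; Epcam, an epithelial adhesion protein, went from 1.25 ± 0.368 to 88.7 ± 24.5 CPM (n = 3 each), and lung epithelium also expresses it. All 8 endothelial markers were higher, at a summed level of 152 to 190 CPM compared with 35.2 to 59.6 CPM at E14.5 and 7290 to 7782 CPM in CD54+CD31+ E14.5 cells. All 7 alveolar type 1 markers were higher, as were 5 of 6 airway markers and all 5 lung mesenchyme markers tested. Of these, 1 alveolar type 1, 3 airway, and 2 mesenchyme markers had fewer than 10 counts in each CD54+CD31- E14.5 library. Hopx, Pdpn, Scgb3a1, and Cyp2f2 fell short of the filter's minimum in some of these libraries. So did Cftr of the cholangiocyte and Emcn of the endothelial markers. All of these genes needed their E18.5 counts to enter the test, so the counts of calls in these 5 lists are a description. Of 12 hepatoblast markers tested, 0 were higher and 5 lower, a count that single libraries decided. Without E18.5 replicate 1, 3 were higher (Ahsg, Fgb, and Fgg) and 8 lower, and without E18.5 replicate 2 or any 1 of the 3 E14.5 libraries 0 were higher and 1 lower. Trf had at most 13 counts in any CD54+CD31- library, whereas Alb had 155394 to 2493936. Whether Trf was not expressed or was lost in counting was not tested. Of the 7 macrophage markers 0 were called, and 1 was higher without E18.5 replicate 1. Of the 5 erythroid markers tested, 4 were lower. The thyroid list had 1 gene higher and 1 lower of 4 tested, the dendritic cell list 1 and 1 of 4, and the kidney list 2 higher of 3, with Umod at 0 counts. In the thyroid and dendritic cell lists, 1 marker each had fewer than 10 counts in each CD54+CD31- E14.5 library. The counts of these lists other than those of hepatoblast and macrophage markers were the same without E18.5 replicate 1.

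The 10 surfactant and AT2 genes made up 2.76%, 1.29%, and 1.22% of all counts in E18.5 replicates 1, 2, and 3, and between 0.00458% and 0.0183% in the E14.5 libraries. At E14.5 most of these counts were from Lpcat1 and Etv5.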
